A study of Mus musculus with 21 samples.

Results

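Oxidative phosphorylation is carried out by 5 protein complexes of the inner mitochondrial membrane, and the nuclear genes for their subunits were taken from the deposited expression table by gene symbol. The symbols were Nduf followed by a, b, c, s or v and a number (complex I), Sdha to Sdhd (complex II), those starting with Uqcr (complex III), those starting with Cox4 to Cox8 (complex IV) and those starting with Atp5 (complex V). This gave 83 of 20900 genes: 36 for complex I, 4 for complex II, 8 for complex III, 18 for complex IV and 17 for complex V. The symbol rule also took in genes that are not subunits in the strict sense. Atp5s and Atp5sl, now named Dmac2l and Dmac2, encode proteins linked to assembly, Cox7a2l encodes a factor of supercomplexes, and Ndufa4 encodes a protein now assigned to complex IV. The mitochondrially encoded subunits are not analysed here, since 0 of 13 are among the symbols of the table.

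Poly(A) RNA was sequenced from mouse embryonic stem cells of the E14 line (129 strain), grown in serum and leukaemia inhibitory factor. The 7 groups of 3 libraries were untreated cells at 0 h, and cells given 1 µM BMH-21 or 1 µM CX-5461 for 2, 4 or 8 h. Both compounds are small molecules that inhibit RNA polymerase I, which transcribes the ribosomal RNA genes. The 0 h libraries served as the control of both inhibitors, so time in fresh medium without inhibitor cannot be told apart from the treatment, and the 6 comparisons with control are not independent. All libraries come from 1 cell line, and nothing in the labels says that replicates were separate cultures, so p-values measure the spread between these libraries, which may be technical.

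Complexes I to IV form the respiratory chain: complexes I and II pass electrons from NADH and succinate to ubiquinone, complex III passes them to cytochrome c, and complex IV passes them to oxygen. Complexes I, III and IV pump protons, and complex V, the ATP synthase, uses the resulting gradient to make ATP. Pluripotent stem cells are known for drawing much of their energy from glycolysis while keeping a working respiratory chain.

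Library depth was 46604397 to 62812641 reads, recovered as whole reads from the deposited log2 values. Values are given as log2 relative to the median gene, meaning that each library was shifted so that its median deviation from the gene means was 0. On the deposited scale the median of all genes moved from control by -0.07, -0.21 and -0.40 at 2, 4 and 8 h of BMH-21, and by -0.18, -0.28 and 0.11 at 2, 4 and 8 h of CX-5461, so directions are given on both scales where they differ. Of 6 embryonic stem cell markers all passed the low-value filter, with a summed level (on the linear scale) of 4600 to 4710 in control, 2430 to 2850 at 8 h of BMH-21 and 3430 to 3500 at 8 h of CX-5461. Of 8 fibroblast markers 4 passed it. The summed level of all 8 was 31.8 to 33.3 in control, 51.3 to 56.9 at 8 h of BMH-21 and 40.8 to 43.8 at 8 h of CX-5461. Lum had 0 to 2 reads in every library. The 4 tested did not move together. At 8 h of each inhibitor 3 were called higher and 1 lower, with Col1a1 highest and Thy1 lowest. As deposited, 1 was higher and 1 lower with BMH-21, and 3 were higher and 0 lower with CX-5461. Of all genes 82.5% and 70.2% were called, and 81.5% and 49.4% as deposited. The part of these marker changes in the results below was not tested. In bulk RNA, fewer cells of a type and less RNA per cell cannot be told apart.

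A set of 3 BMH-21 libraries stood apart from their replicates in the subunit genes. In 2 h replicate 1, 4 h replicate 3 and 8 h replicate 2, 78, 74 and 78 of 79 subunit genes lay above their group mean, by a median of 0.09, 0.09 and 0.18 on the log2 scale. Over all genes, the deviation of these libraries from their group mean correlated with transcript length with Spearman's rho of -0.40, -0.45 and -0.57, a description across genes, which are not independent replicates. Subunit transcripts are short, with a median length of 745 bases against 2638 for all genes tested. The part of transcript length in the results was not tested beyond the refit without a length trend. Counts over all subunit genes are also given with such libraries left out, while most counts by complex or by related list are not.

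Of the 83 genes, 79 passed the filter on low values: 35 of complex I, 4 of complex II, 8 of complex III, 15 of complex IV and 17 of complex V. The 4 others were Ndufs5, with 0 to 2 reads per library, which is not read as its expression because sharing of reads with near-identical copies was not tested, and the tissue-restricted complex IV isoforms Cox6a2, Cox8b and Cox8c. In control cells the median level per kilobase of transcript, on the log2 scale, was 7.63 for complex V, 7.44 for complex III, 7.27 for complex IV, 6.54 for complex II and 6.18 for complex I, against 2.88 for all genes tested. The highest level among them was that of Atp5b, the catalytic beta subunit of the ATP synthase, at 10.1 on this per-kilobase scale.

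Promoters of 3 genes that rose (Cox6b2, Ndufb6, Ndufa11) and 2 that fell (Ndufs7, Sdha) at 8 h of both inhibitors are shown so that the changes can be read beside the sequence. They are 300-base windows around the gene start from RefSeq on GRCm38.p6, the build that mm10 names, written 5′ to 3′ on the gene's strand. Capitals mark matches, on either strand, to the motifs CGCNTGCGC (NRF1), CCGGAAG (ETS factors such as GABPA), AAGATGGCG (YY1) and TATAAA (the TATA box). The windows were chr7:4753045-4753344 on the minus strand for Cox6b2, chr4:40279372-40279671 on the minus strand for Ndufb6, chr17:56717512-56717811 on the plus strand for Ndufa11, chr10:80249199-80249498 on the plus strand for Ndufs7 and chr13:74350191-74350490 on the minus strand for Sdha.
Cox6b2: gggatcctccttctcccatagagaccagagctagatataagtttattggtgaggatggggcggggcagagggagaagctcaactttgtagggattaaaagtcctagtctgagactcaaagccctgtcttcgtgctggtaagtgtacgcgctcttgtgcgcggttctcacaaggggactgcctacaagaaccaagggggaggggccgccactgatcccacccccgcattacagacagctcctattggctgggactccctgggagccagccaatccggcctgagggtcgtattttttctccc
Ndufb6: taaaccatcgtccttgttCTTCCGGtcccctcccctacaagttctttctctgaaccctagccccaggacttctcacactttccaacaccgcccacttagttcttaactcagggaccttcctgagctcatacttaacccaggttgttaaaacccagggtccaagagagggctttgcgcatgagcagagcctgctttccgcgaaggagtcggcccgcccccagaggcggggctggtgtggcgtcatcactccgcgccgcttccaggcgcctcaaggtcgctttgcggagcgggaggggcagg
Ndufa11: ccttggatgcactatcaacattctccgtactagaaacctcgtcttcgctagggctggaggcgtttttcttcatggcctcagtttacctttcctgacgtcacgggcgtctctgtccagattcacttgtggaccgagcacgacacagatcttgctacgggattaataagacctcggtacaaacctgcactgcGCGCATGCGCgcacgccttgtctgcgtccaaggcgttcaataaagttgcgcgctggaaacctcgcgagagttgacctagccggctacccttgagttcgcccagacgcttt
Ndufs7: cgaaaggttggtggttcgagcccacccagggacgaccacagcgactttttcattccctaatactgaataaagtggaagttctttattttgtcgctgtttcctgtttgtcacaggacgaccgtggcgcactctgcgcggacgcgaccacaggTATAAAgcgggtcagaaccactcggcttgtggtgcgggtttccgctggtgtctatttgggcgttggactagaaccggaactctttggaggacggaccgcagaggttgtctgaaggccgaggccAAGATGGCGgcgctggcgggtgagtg
Sdha: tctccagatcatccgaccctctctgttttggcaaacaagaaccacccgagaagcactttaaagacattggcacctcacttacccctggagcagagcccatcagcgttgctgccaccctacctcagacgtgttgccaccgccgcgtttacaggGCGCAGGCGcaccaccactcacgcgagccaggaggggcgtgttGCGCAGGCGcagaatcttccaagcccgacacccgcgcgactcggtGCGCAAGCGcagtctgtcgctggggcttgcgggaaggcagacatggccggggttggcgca

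None of the 4 motifs matched in the Cox6b2 window. The Ndufa11 window held 2 overlapping NRF1 matches, 1 on each strand, the Sdha window held 3 on the strand opposite to the one printed, the Ndufb6 window held an ETS motif, and the Ndufs7 window held a TATA box and a YY1 motif. NRF1 and YY1 are regulators known to act on many respiratory genes. Promoter windows were matched for 69 of the 83 genes, 75 windows in all. The NRF1 motif was in 21 of these 75 windows (28%) against 6.25% of all 32851 windows, the ETS motif in 16 (21.3%) against 8.86%, the YY1 motif in 9 (12%) against 1.4%, and TATAAA in 8 (10.7%) against 13.6%. By complex, the NRF1 motif was in 9 of 34 windows of complex I, 2 of 3 of complex II, 2 of 5 of complex III, 1 of 13 of complex IV and 7 of 20 of complex V. The share depended on how the motif was spelt: the stricter CGCATGCGC was in 8 of 75 windows (10.7%) against 1.75% of all windows, with no match in the Sdha window. A match is a description and not a binding site, and an NRF1 match stood in the window of a gene that rose (Ndufa11) and of one that fell (Sdha).

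Compared with the rest of the transcriptome the subunit genes changed little. The median size of the log2 change from control was 0.04, 0.11 and 0.16 for the 79 genes at 2, 4 and 8 h of BMH-21, against 0.13, 0.36 and 0.53 for all genes tested. For CX-5461 it was 0.04, 0.05 and 0.12 against 0.12, 0.31 and 0.30. In the 6 comparisons with control, the sole subunit gene called with a change of at least 2-fold was Cox6b2, at 4 h of both inhibitors. As deposited, Cox6b2 stayed under 2-fold there (0.97 and 0.98 on the log2 scale), and the sole such gene was Ndufs7, at 8 h of BMH-21 (-1.02). Of all genes, 3.64%, 18.4% and 26.5% were called with such a change at 2, 4 and 8 h of BMH-21, and 3.98%, 15.5% and 12.6% at those times of CX-5461.

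**Figure D1:**
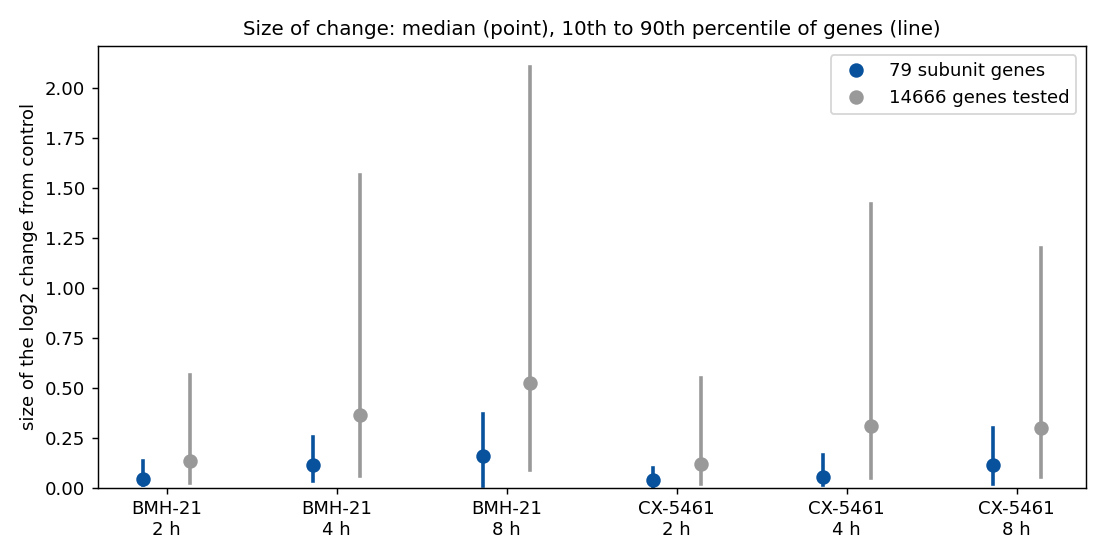
Size of the log2 change from control (vertical axis) of the 79 subunit genes (blue) and of all 14666 genes tested (grey) at each time of each inhibitor; points are medians over genes, and lines run between the outer percentiles named in its title. The subunit medians, 0.04 to 0.16, lie below those of all genes, 0.12 to 0.53, in each of the 6 comparisons.

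At 2 h of either inhibitor 3 subunit genes rose and 0 fell: Cox6b2, Ndufb6 and Ndufa11 (limma, Benjamini-Hochberg adjusted p under the threshold of 0.05 over 14666 genes), where 35.8% of all genes were called with BMH-21 and 31.7% with CX-5461. The count at 2 h was 1 without BMH-21 2 h replicate 1 for BMH-21 and 1 without control replicate 3 for CX-5461. At 4 h of BMH-21, 27 rose and 0 fell, where 72.7% of all genes were called (35.4% higher, 37.4% lower). At 4 h of CX-5461, 6 rose and 3 fell, where 69.4% were called (34.1% higher, 35.3% lower). At 8 h of BMH-21, 23 rose and 18 fell, where 82.5% were called (40.7% higher, 41.8% lower). At 8 h of CX-5461, 5 rose and 25 fell, where 70.2% were called (36.3% higher, 33.9% lower). The share of subunit genes called was below that of all genes in each of these comparisons.

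The split between rises and falls depended on the scale. On the deposited scale the calls at 4 h were 3 higher and 4 lower for BMH-21 and 1 higher and 54 lower for CX-5461, and at 8 h 3 higher and 56 lower for BMH-21 and 4 higher and 3 lower for CX-5461. The shares of all genes called on that scale were 67.0% and 70.9% at 4 h and 81.5% and 49.4% at 8 h, in the same order. The 3 falls at 8 h of CX-5461 on that scale were Ndufs7, Ndufs1 and Atp5f1, so every other fall given below for that group was not called there. Centring each library on its own median gave 2 higher and 51 lower at 8 h of CX-5461. Without BMH-21 4 h replicate 3 the count at 4 h was 14 higher and 1 lower. Without BMH-21 8 h replicate 2 the 8 h count was 18 higher and 27 lower.

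**Figure D2:**
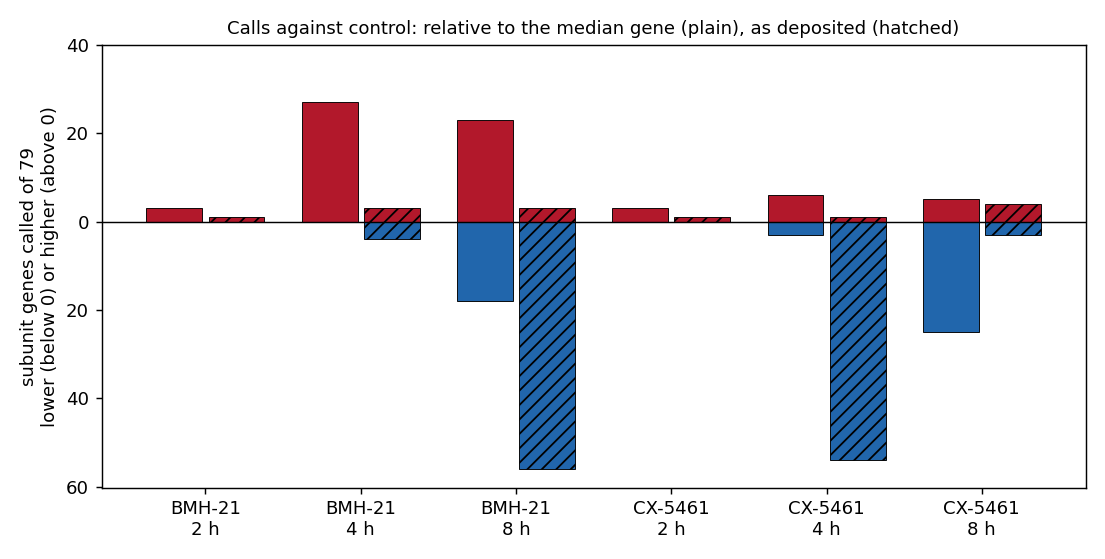
Number of the 79 subunit genes called higher (red, above 0) or lower (blue, below 0) than control at each time of each inhibitor, relative to the median gene (plain bars) and on the deposited scale (hatched bars). At 8 h of BMH-21 the calls are 23 higher and 18 lower on the first scale and 3 higher and 56 lower on the second.

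Calls at 8 h that held in direction and threshold under every alternative run numbered 11 of 41 for BMH-21, 3 higher and 8 lower, and 4 of 30 for CX-5461, 2 higher and 2 lower. The share of all genes whose calls held was not computed. At 8 h of BMH-21 the deposited scale put the median of all genes at -0.40, which works against rises and favours falls. The split of 3 and 8 is therefore not read as a direction of the subunit genes. For BMH-21 the 3 rises were Cox6b2, Ndufb6 and Ndufa11, and the falls included Ndufs7, Ndufs1, Ndufs3, Ndufb4, Sdha, Uqcrfs1 and Atp5sl. For CX-5461 they were Cox6b2 and Ndufb6, which rose, and Ndufs7 and Ndufs1, which fell.

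In complex I the flavoprotein and iron-sulfur core subunits, which carry the electrons, moved apart from the accessory subunits around them. Ndufs7, the core subunit that holds the last iron-sulfur cluster before ubiquinone, had log2 values of 5.89, 5.90 and 5.79 in control, 5.67, 5.67 and 5.88 at 4 h of BMH-21 and 5.13, 5.36 and 5.21 at 8 h, and at 8 h of CX-5461 they were 5.45, 5.35 and 5.37. All 8 h libraries of both inhibitors lay below all control libraries, while at 4 h of BMH-21 the groups overlapped. Ndufs7 fell by 0.63 at 8 h of BMH-21 (SE 0.06, 0.646 of control, limma adjusted p = 2.12e-09) and by 0.47 at 8 h of CX-5461 (SE 0.06, adjusted p = 4.58e-07).

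Ndufs1, the large iron-sulfur subunit, had values of 7.49, 7.51 and 7.39 in control, 7.07, 7.14 and 7.07 at 8 h of BMH-21 and 7.13, 7.14 and 7.07 at 8 h of CX-5461, again without overlap. It fell by 0.37 and by 0.35 (SE 0.04 for both, limma adjusted p = 5.16e-09 and 2.58e-08). Ndufs3, of the arm that reduces the quinone, fell by 0.27 at 8 h of BMH-21 and by 0.21 at 8 h of CX-5461. Ndufv2, a flavoprotein subunit, fell by 0.17 and by 0.21. Ndufv1, which binds the flavin that accepts electrons from NADH, did not pass the test at 8 h, with changes of 0.09 for BMH-21 and -0.03 for CX-5461, and Ndufs8 fell with CX-5461 alone (by 0.16), with 0.00 for BMH-21. On the deposited scale Ndufv1 and Ndufs8 were called lower at 8 h of BMH-21.

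Ndufb6, an accessory subunit of the membrane arm, had values of 5.83, 5.94 and 5.80 in control, 6.25, 6.01 and 6.05 at 2 h of BMH-21, 6.45, 6.42 and 6.58 at 4 h and 6.60, 6.91 and 6.72 at 8 h. With CX-5461 they were 6.06, 5.99 and 6.11 at 2 h, 6.15, 6.14 and 6.19 at 4 h and 6.30, 6.13 and 6.14 at 8 h. Every treated library lay above every control library. The change at 8 h was 0.88 for BMH-21 (SE 0.07, 1.85-fold, limma adjusted p = 2.73e-11) and 0.33 for CX-5461 (SE 0.07, adjusted p = 0.000177), and the rises at 2 h of both inhibitors and at 4 h of CX-5461 were not called on the deposited scale. In the annotation 39% of the exon bases of Ndufb6 overlap Smim27 on the other strand, listed in the table as Toporsos, and whether reads were counted by strand is not given in the sources used here. Toporsos had 21 to 59 reads per library against 2701 to 7955 for Ndufb6, and was lower at 8 h of BMH-21 by a log2 change of -0.75. How reads in the shared exons were assigned is not known, so these counts do not give the level of Toporsos. The part of the overlap in the Ndufb6 values was not tested.

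Ndufa11, another accessory subunit of the membrane arm, had values of 5.92, 6.00 and 5.87 in control, 6.58, 6.90 and 6.60 at 8 h of BMH-21 and 6.19, 6.23 and 6.16 at 8 h of CX-5461. The groups did not overlap. It rose by 0.76 (SE 0.07, 1.70-fold, limma adjusted p = 3.74e-10) and by 0.27 (SE 0.07, adjusted p = 0.00152). At 2 h of both inhibitors and at 4 h of CX-5461 it was not called on the deposited scale. Ndufa4, counted here with complex I by its symbol, rose by 0.37 at 8 h of BMH-21 and was not called on the deposited scale (-0.02).

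Averaged over genes, the change of the 7 core subunits lay below that of the 28 other complex I genes, a contrast made after the values had been seen and given without a test. The mean change of the core minus that of the others, taken within each library and so the same under any shift of a whole library, was -0.15 at 4 h and -0.41 at 8 h of BMH-21 (lowest and highest library at 8 h -0.46 and -0.38). With CX-5461 it was -0.12 at 4 h and -0.23 at 8 h (-0.25 and -0.21 at 8 h), against -0.02 to 0.02 in the control libraries. With a transcript length trend removed it was -0.42 and -0.26 at 8 h, and without the 3 BMH-21 libraries that stood apart it was -0.39. Quantile normalization, which is not a shift of whole libraries, gave -0.35 and -0.16 at 8 h. At 8 h of BMH-21, 14 of the 28 other genes rose and 1 fell (11 and 3 without replicate 2). At 8 h of CX-5461, 3 rose and 4 fell. Of the 7 core genes, 0 rose in either, 5 fell with BMH-21 and 6 with CX-5461, beside 82.5% and 70.2% of all genes called. Other settings did call core rises. With BMH-21, removing the length trend gave 2 higher and 4 lower. Quantile normalization, a filter at a mean log2 value of at least 2, and leaving out 8 h replicate 1 each gave 1 higher and 4 lower. With CX-5461 quantile normalization gave 1 higher and 3 lower. As deposited, the others counted 2 higher and 17 lower with BMH-21, and 3 and 0 under CX-5461, while 7 and 2 core genes were lower.

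**Figure D3:**
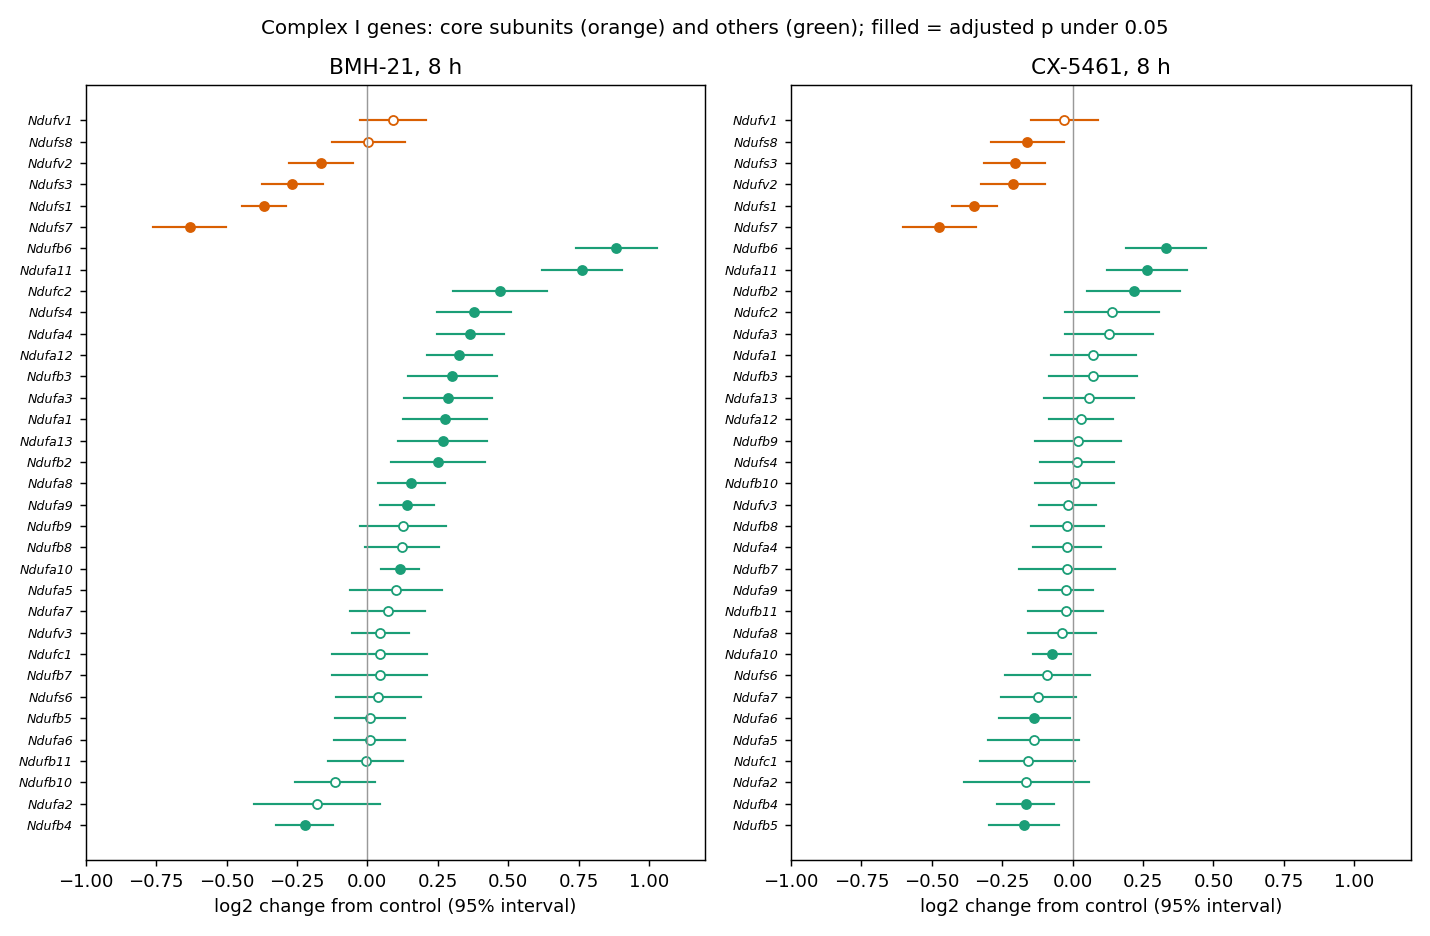
Log2 change from control at 8 h, relative to the median gene, of complex I genes tested, with 95% intervals, for BMH-21 (left) and CX-5461 (right); orange marks core subunits, green the others, and filled points have an adjusted p under 0.05. The core subunits plotted lie at or left of 0 except Ndufv1 with BMH-21 (0.09), and Ndufb6 and Ndufa11 lie farthest right with both inhibitors.

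Complex II, succinate dehydrogenase, is also an enzyme of the tricarboxylic acid cycle and has 4 subunits, all nuclear. Sdha, the flavoprotein that oxidises succinate, had values of 8.25, 8.28 and 8.21 in control, 7.87, 7.93 and 7.83 at 8 h of BMH-21 and 7.96, 7.98 and 7.94 at 8 h of CX-5461. Neither 8 h group overlapped control. Sdha fell by 0.37 and by 0.29 (SE 0.03 for both, limma adjusted p = 7.72e-10 and 1.13e-07). Sdhb, the iron-sulfur subunit, fell by 0.18, with overlap between the groups, and by 0.27. Of the membrane anchors, Sdhd fell by 0.24 at 8 h of CX-5461, and Sdhc rose by 0.13 at 8 h of BMH-21, a rise that turned to a call of -0.25 on the deposited scale. Between the inhibitors at 8 h, Sdhc was higher with BMH-21 by 0.21 (SE 0.05, adjusted p = 0.000365, but called lower at -0.27 on the deposited scale) and Sdha lower by -0.08 (SE 0.03, adjusted p = 0.0376).

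In complex III the pair of core proteins moved in opposite directions with BMH-21. Uqcrc1 had values of 8.35, 8.37 and 8.30 in control and 8.57, 8.76 and 8.60 at 8 h of BMH-21, and Uqcrc2 had 7.42, 7.39 and 7.40 against 7.18, 7.23 and 7.18. Neither gene's groups overlapped. Uqcrc1 rose by 0.30 (SE 0.05, limma adjusted p = 1.58e-06) and was not called on the deposited scale (-0.08), and Uqcrc2 fell by 0.21 (SE 0.03, adjusted p = 3.08e-06). With CX-5461 Uqcrc2 fell at 8 h by 0.30 (SE 0.03, adjusted p = 2.05e-08), while Uqcrc1 changed by 0.02 and did not pass the test. Uqcrfs1, the Rieske iron-sulfur protein, fell by 0.23 and by 0.26 at 8 h of BMH-21 and CX-5461, though the groups overlapped with BMH-21, and Uqcrb, a ubiquinone-binding subunit, fell by 0.18 with CX-5461.

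Complex IV, cytochrome c oxidase, has subunits with tissue-specific isoforms, and the largest change among the 79 genes that passed the filter was in one of them. Cox6b2, the testis isoform of subunit VIb, had values of 3.49, 3.48 and 3.58 in control, 4.22, 3.97 and 4.02 at 2 h of BMH-21, 4.59, 4.73 and 4.74 at 4 h and 4.39, 4.63 and 4.47 at 8 h. With CX-5461 they were 4.29, 4.09 and 4.17 at 2 h, 4.83, 4.71 and 4.75 at 4 h and 4.33, 4.38 and 4.41 at 8 h. Every treated library was above every control library, and the 4 h mean was the highest of each inhibitor. Over 2, 4 and 8 h Cox6b2 rose with BMH-21 by 0.55, by 1.17 and by 0.98, and with CX-5461 by 0.67, by 1.24 and by 0.86 (SE 0.07 each, limma adjusted p from 1.36e-13 to 1.14e-06), and all were called on the deposited scale too.

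Its ubiquitous counterpart Cox6b1 was not called at 8 h of either inhibitor relative to the median gene. Within each library, Cox6b2 minus Cox6b1 was -3.58 to -3.33 on the log2 scale in control, and -2.47 to -2.32 at 4 h of BMH-21, -2.27 to -2.21 at 4 h of CX-5461, -2.77 to -2.60 at 8 h of BMH-21 and -2.72 to -2.58 at 8 h of CX-5461. This difference does not depend on how libraries are scaled, and no treated library reached the control range. Between the inhibitors Cox6b2 did not pass the test at any time relative to the median gene, with differences of -0.12, -0.08 and 0.12 at 2, 4 and 8 h, and on the deposited scale it was lower at 8 h of BMH-21 by -0.37.

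Of the ubiquitous subunits, Cox5b had values of 6.92, 6.77 and 6.84 in control, 7.16, 7.34 and 7.23 at 8 h of BMH-21 and 6.93, 7.01 and 6.93 at 8 h of CX-5461. Both 8 h groups lay above control. It rose by 0.40 (SE 0.05, limma adjusted p = 3.82e-08) and by 0.11 (SE 0.05, adjusted p = 0.038), and was called with neither inhibitor on the deposited scale (0.01 and 0.21). The CX-5461 call held in 10 of 19 alternatives. Cox5a fell by 0.28 at 8 h of CX-5461. Cox4i1, Cox6a1 and Cox8a rose by 0.30, by 0.28 and by 0.23 at 8 h of BMH-21 and were not called on the deposited scale, where their changes were -0.08, -0.11 and -0.16.

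Cox4i2, the lung isoform of subunit IV, and Cox7b2 lay near a log2 value of 0 and did not pass the test at 8 h, nor did Cox7a1, Cox7a2 and Cox7a2l. Cox6a2, the heart and muscle isoform of subunit VIa, was below the filter, with 3, 4 and 4 reads in control, 8, 6 and 6 at 4 h of BMH-21, 31, 43 and 36 at 8 h of BMH-21 and 5, 13 and 11 at 8 h of CX-5461. Scaled for depth, all libraries at 8 h of BMH-21 were above control, and those of CX-5461 overlapped it (replicate 1 at -3.46 against -3.42 in control replicate 3, log2). The ratio of scaled reads to control was 8.83 at 8 h of BMH-21 (95% exact interval 4.75 to 18.2, for counting error only) and 2.38 at 8 h of CX-5461 (1.15 to 5.27). Without the filter limma gave log2 changes of 2.89 (adjusted p = 8.97e-06) and 1.00 (adjusted p = 0.0837).

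**Figure D4:**
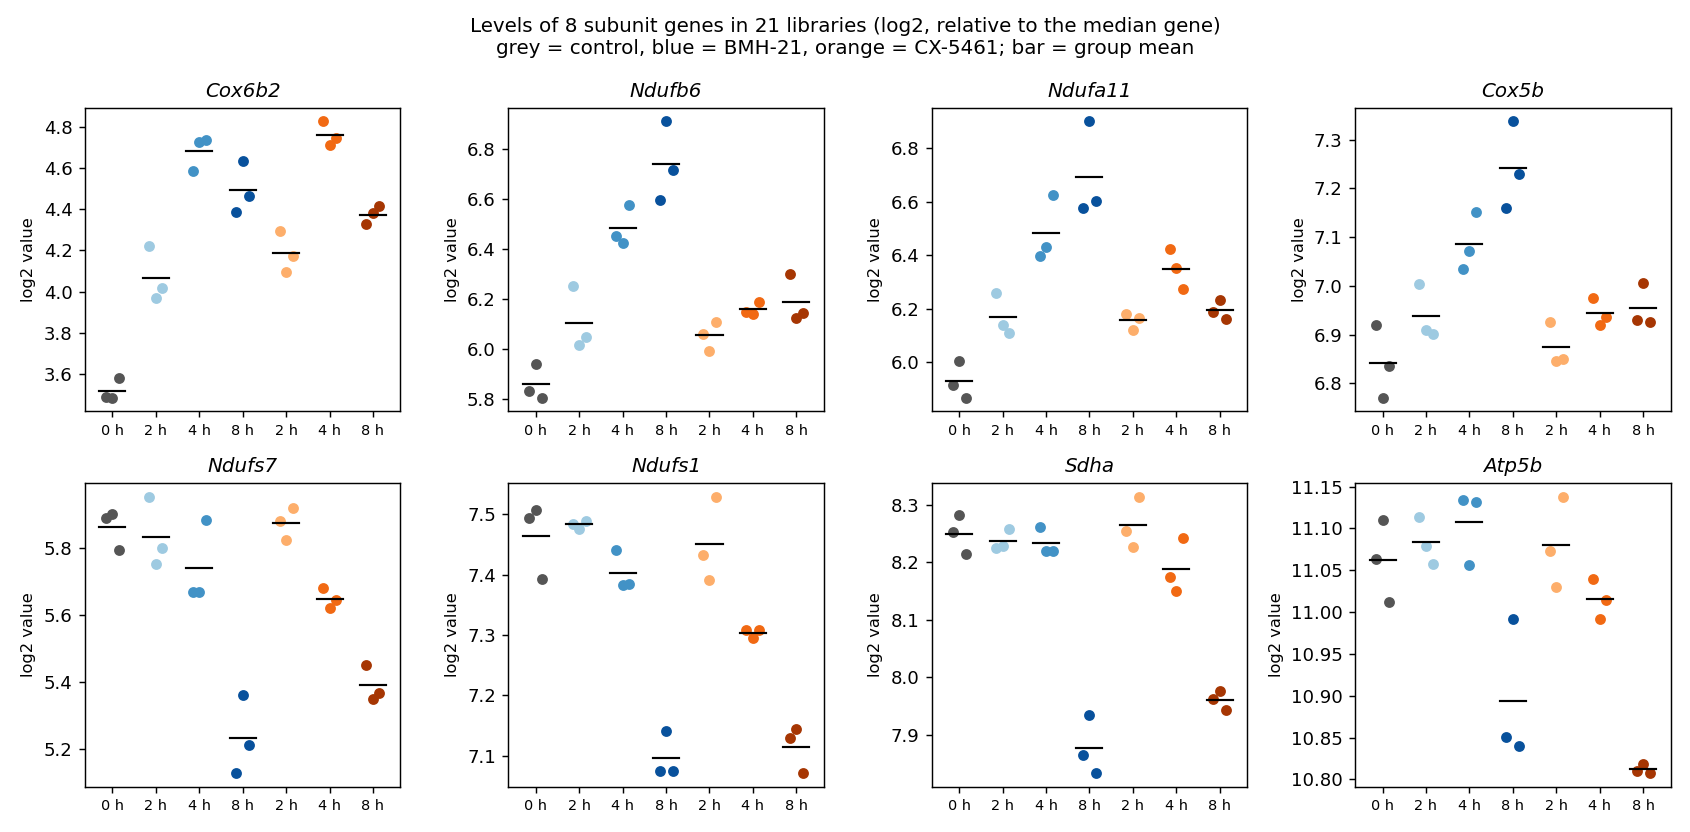
Log2 value relative to the median gene of 8 subunit genes in each of the 21 libraries (points) with the group mean (bar), for control (grey), BMH-21 (blue) and CX-5461 (orange) at 2, 4 and 8 h; the vertical axes differ and do not start at 0. Cox6b2, Ndufb6 and Ndufa11 lie above control in every treated group, and Ndufs7, Ndufs1, Sdha and Atp5b lie below control at 8 h.

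At 4 h of BMH-21 the single complex V gene called was Atp5o, a stalk subunit, which rose by 0.15, though it was not called as deposited (-0.05), where Atp5sl was the single one, lower by -0.27. In complex V genes of the catalytic head fell at 8 h of both inhibitors relative to the median gene. Atp5b had values of 11.06, 11.11 and 11.01 in control, 10.85, 10.99 and 10.84 at 8 h of BMH-21 and 10.81, 10.82 and 10.81 at 8 h of CX-5461. The treated groups lay below control, closest in BMH-21 replicate 2. Atp5b fell by 0.17 and by 0.25, Atp5a1 (the alpha subunit) by 0.16 and by 0.26, and Atp5c1 (the gamma subunit of the central stalk) by 0.23 and by 0.30, all past the limma threshold. Atp5f1, of the peripheral stalk, fell by 0.22 and by 0.34. With CX-5461, Atp5b, Atp5a1 and Atp5c1 were not called on the deposited scale (-0.15, -0.16 and -0.20), and under quantile normalization the BMH-21 value of Atp5a1 was 0.15.

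The membrane ring subunit c, which turns as protons pass, is encoded by 3 genes for the same mature protein. Atp5g1 and Atp5g3 fell by 0.15 each at 8 h of BMH-21, with overlap between the groups, and by 0.21 each at 8 h of CX-5461 without overlap. Atp5g2 rose by 0.20 at 8 h of BMH-21, with overlap, and its change there was -0.18 and not called on the deposited scale. The 3 control libraries of Atp5g2 spread from 7.16 to 7.62. Atp5sl fell by 0.28 at 8 h of BMH-21 and did not pass the test with CX-5461, and the BMH-21 value was lower than the CX-5461 value by -0.22 (SE 0.05, limma adjusted p = 0.000333).

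Set side by side, complex IV had the highest mean change and complex II the lowest at 8 h of both inhibitors, which share their control. With BMH-21 the mean change of complex II at 8 h minus that of complex IV within each library was -0.29 (lowest and highest library -0.34 and -0.24), that of complex III -0.20, that of complex V -0.21 and that of complex I -0.07. The CX-5461 values at 8 h were -0.24, -0.16, -0.16 and -0.07, and the control libraries spanned -0.03 to 0.03 over the 4 differences. The values do not depend on a shift of whole libraries, but under quantile normalization they were -0.10, -0.03, -0.05 and 0.00 with BMH-21, then -0.07, 0.01, 0.00 and 0.00 under CX-5461. The complex IV mean, over 15 genes, includes Cox6b2, which rose by 0.98 and by 0.86 at 8 h. A rise of that size in 1 of 15 genes can by itself make most of a difference as small as -0.07. Complex IV is therefore not read as set apart from complex I. How far the larger differences rest on this gene was not tested. No test is given for these averages over genes.

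The medians by complex at 8 h of BMH-21 were 0.09 for complex I, -0.11 for complex II, -0.02 for complex III, 0.14 for complex IV and -0.02 for complex V, beside -0.01 for all genes tested. For CX-5461 they were -0.02, -0.25, -0.11, 0.02 and -0.12, beside 0.01. By count, complex I had 14 higher and 6 lower of 35 with BMH-21 and 3 higher and 10 lower with CX-5461. Complex II had 1 higher and 2 lower of 4, then 0 and 3. Complex III had 1 higher and 2 lower of 8, then 0 and 3. Complex IV had 5 higher and 0 lower of 15, then 2 and 2. Complex V had 2 higher and 8 lower of 17, then 0 and 7. The shares of all genes called were 82.5% and 70.2%. As deposited, the BMH-21 medians of complexes I to V were -0.30, -0.50, -0.41, -0.25 and -0.41, beside -0.40 for all genes, with 2 higher and 24 lower, 0 and 4, 0 and 7, 1 and 8, and 0 and 13. The CX-5461 medians on that scale were 0.08, -0.15, -0.01, 0.12 and -0.02, beside 0.11, with 3 higher and 2 lower in complex I, 1 higher in complex IV, 1 lower in complex V and 0 called in complexes II and III.

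**Figure D5:**
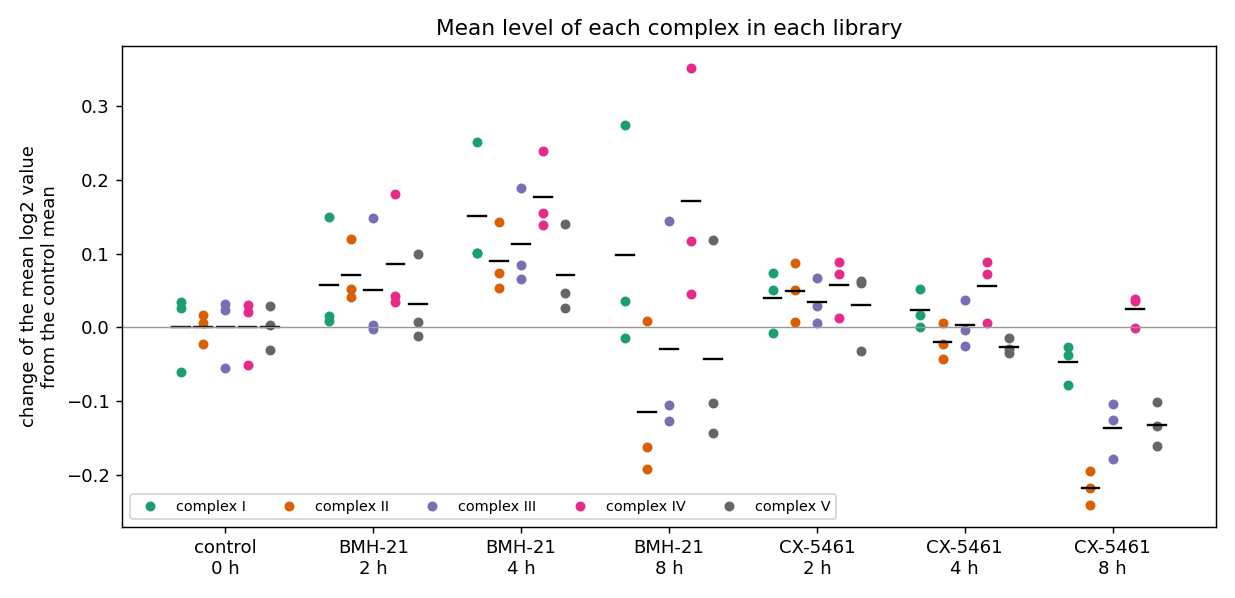
Change of the mean log2 value of each complex from its control mean, relative to the median gene, in each of the 21 libraries (points, coloured by complex) with the group mean (bar), for control, BMH-21 and CX-5461 at 2, 4 and 8 h. Complex IV, whose mean includes the large rise of Cox6b2, is highest and complex II lowest at 8 h of both inhibitors. At 8 h of BMH-21, 1 of the 3 libraries, replicate 2, lies above its replicates in every complex.

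Directly between the inhibitors, 0 of 79 subunit genes were called at 2 h, where limma called 15.0% of all genes. At 4 h, 17 were higher with BMH-21 and 0 lower, where 41.9% of all genes were called. This count was 3 without BMH-21 4 h replicate 3, 5 without CX-5461 4 h replicate 2 and 6 without CX-5461 4 h replicate 3. At 8 h, 35 were higher and 3 lower with BMH-21, where 70.9% were called, and 15 were higher and 7 lower without BMH-21 8 h replicate 2. On the deposited scale 0 were higher and 70 lower at 8 h, where 79.2% of all genes were called and their median differed by -0.48. The highest differences were those of Ndufb6, at 0.55 (SE 0.07, adjusted p = 1.92e-07), and Ndufa11, at 0.50 (SE 0.07, adjusted p = 8.69e-07), and both were near 0 on the deposited scale (0.06 and 0.01). In complex IV Cox5b was higher by 0.29, in complex III Uqcrc1 by 0.28 and in complex V Atp5g2 by 0.19. On the deposited scale these differences turned negative. There Cox5b was at -0.20 and Uqcrc1 at -0.21, and Atp5g2 was called lower, as were all 17 complex V genes.

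Within each inhibitor, most changes from 4 to 8 h were falls. With BMH-21, 4 rose and 26 fell, where 69.2% of all genes were called, and 2 rose and 46 fell without BMH-21 8 h replicate 2. With CX-5461, 0 rose and 28 fell, where 57.4% were called, and on the deposited scale 52 rose and 0 fell, where 63.7% were called. Cox6b2 fell from 4 to 8 h by 0.19 with BMH-21, with overlap, and by 0.39 with CX-5461, where it was not called on the deposited scale (-0.02). The 4 to 8 h change differed between the inhibitors for 10 subunit genes, higher with BMH-21 for 6 and lower for 4, where 57.8% of all genes were called.

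Genes that work with the subunits were followed in lists chosen with earlier results known. Cyc1, the cytochrome c1 subunit of complex III that the symbol rule leaves out, fell by 0.46 and by 0.37 at 8 h of BMH-21 and CX-5461, and Ndufa4l2, a paralogue of Ndufa4, rose by 2.99 and by 1.84. Of 15 complex I assembly factors tested, 2 rose and 9 fell at 8 h of BMH-21 and 2 rose and 6 fell at 8 h of CX-5461, where 82.5% and 70.2% of all genes were called, as for the lists that follow. Among them Ndufaf4 fell by 0.98 and by 0.69, and Timmdc1 rose by 0.94 and by 0.62. Of 18 complex IV assembly factors, 6 rose and 7 fell, then 2 and 6, and Taco1, a translation activator of a mitochondrial subunit, rose by 1.17 and by 0.44. On the deposited scale the complex I factors counted 1 higher and 13 lower, then 1 and 3, and the complex IV factors 1 and 12, then 2 and 0. The shorter lists for complexes II (4 genes), III (6) and V (4) had 1, 2 and 3 genes higher and 1, 3 and 0 lower at 8 h of BMH-21, and 1 higher each with 1, 3 and 0 lower at 8 h of CX-5461. As deposited, these lists had 1 higher each with 3, 4 and 1 lower for BMH-21, then 1 higher each with 0 lower for CX-5461. Among these Lyrm7, an assembly factor of complex III, rose by 1.25 and by 0.64, and Tmem70, which assists assembly of the ATP synthase, rose by 0.63 and by 0.21. The lowest changes in the lists for complexes II, III and IV were those of Sdhaf2, Bcs1l and Cox20 at 8 h of both inhibitors.

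Of 15 regulators of respiratory genes tested, 2 rose and 9 fell at 8 h of BMH-21, and 1 rose and 11 fell at 8 h of CX-5461, with medians of -0.16 and -0.30, beside the same 82.5% and 70.2% of all genes called. Pprc1, a coactivator of the PGC-1 family, fell by 1.33 and by 0.71, and Esrra, an oestrogen-related receptor, rose by 0.65 and by 0.33. Nrf1 and Gabpa, whose motifs are marked in the promoters above, fell by 1.17 and by 0.97 at 8 h of BMH-21 and by 0.49 and by 0.66 at 8 h of CX-5461, and were named after their values were seen. Yy1, whose motif is also marked, was on the list too, and its value is not given. The part of these regulators in the changes of the subunit genes was not tested. Of 14 enzymes of the tricarboxylic acid cycle, 4 rose and 8 fell, then 0 and 10, with medians of -0.14 and -0.17. Idh3a, a subunit of isocitrate dehydrogenase, fell by 0.38 and by 0.31. Dlst had the highest change of these enzymes at 8 h of both inhibitors. As deposited, the regulators counted 1 higher and 13 lower, then 1 and 4, and the cycle enzymes 0 and 13, then 0 and 1. Pprc1, Esrra, Nrf1 and Gabpa kept their call there in both groups, while Idh3a was not called with CX-5461 (-0.21).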

How the data were processed

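Poly(A) RNA-seq was done on 21 libraries of E14 mouse embryonic stem cells, in 7 groups of 3 taken from the labels. The deposited table holds log2 expression values made by the authors. The submitters' processing notes name Trim Galore 0.5.0, TopHat2 2.1.1, R 4.0.5, DESeq2 1.30.1, edgeR 3.32.1, limma 3.46.0 and the build mm10, and give no role or order for them. The counting program and its strand setting are not given in the sources used here. Whole reads were recovered from the log2 values, taking the lowest value of each library as 0 reads plus an offset of 0.5, to within 1.8e-08 of a whole read.

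Genes with a deposited log2 value above 0 in at least 3 libraries were tested, 14666 of 20900. The log2 values were shifted so that the median deviation of each library was 0, and a linear model with 1 mean per group was fitted in limma 3.58.1 (R 4.3.3), with eBayes and a mean-variance trend, two-sided, and Benjamini-Hochberg adjustment over all genes tested at 0.05. There were 12 comparisons. Because of the offset, fold changes of genes with few reads are understated. On simulated reads for 14666 genes at 8 h of BMH-21 against control, the fit recovered 71 of 100 genes changed by 0.5 on the log2 scale and 93 of 100 changed by 1, with 9 false calls among 173, and made 0 calls in an unchanged comparison. Only those genes changed, equally up and down, and noise was independent between genes, with no deviation of libraries by transcript length. The simulation thus gives no false-call rate for the real comparison, where 82.5% of all genes were called.

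Genes named in the text are a fixed list of members by role, and the largest rise and the largest fall per complex and comparison among called genes whose groups did not overlap. For the lists of related genes the same rule was applied at 8 h, but values are given in the text for only some of the genes it can pick. Others that the text describes, Ndufb4 among them, were chosen after their values were seen. The values of 1 gene are not reported here, though the counts and averages include it. The members and lists were chosen with earlier results of these data known. Lengths, overlaps and GC content came from GENCODE M21, and promoters from RefSeq. The NRF1 motif was spelt in several ways after matches had been seen, and a looser and a stricter spelling are both given. Alternatives were the deposited scale, centring, quantile normalization, other filters, an offset of 5 reads, other variance models, voom weights, fits of only the groups compared, a replicate block and leaving out each replicate. Leaving out the 3 libraries that stood apart, and removing trends of length or GC, were chosen after seeing the data. Figures were drawn with matplotlib 3.10.9.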

Additional observations from a re-analysis of the deposited data

Results flagged for a closer look

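The change from 4 h to 8 h differed between BMH-21 and CX-5461 for 10 subunit genes, 6 upward and 4 downward, by limma's interaction test, adjusted over all genes tested, of which 57.8% were called. The difference, BMH-21 minus CX-5461 on the log2 scale, was positive for Ndufa11 (0.36), Atp5g2 (0.28), Ndufb6 (0.23), Cox8a (0.21), Uqcrc1 (0.19) and Ndufa10 (0.15). Negative values included those of Ndufs7 (-0.25), Atp5sl (-0.18) and Sdha (-0.13). On the deposited scale the difference was negative for all 10 genes. The count was 20 without BMH-21 8 h replicate 2, 6 without BMH-21 4 h replicate 1, and 5 without CX-5461 4 h replicate 1 or without CX-5461 8 h replicate 1.

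Cox6a2, below the filter and so outside the comparisons, is listed because its reads at 8 h of BMH-21 lay above the control libraries, at a ratio of 8.83.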

How the results depend on the processing

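Counts of subunit genes called moved mostly with the scale. As deposited they were, at 2, 4 and 8 h against control, 1, 7 and 59 with BMH-21, 1, 55 and 7 under CX-5461, 3 at 4 h and 70 at 8 h between inhibitors, 52 from 4 to 8 h of CX-5461 and 73 for the difference between the inhibitors' 4 to 8 h changes. The shares of all genes called on that scale were 19.7%, 67.0% and 81.5% with BMH-21 and 27.9%, 70.9% and 49.4% under CX-5461. In the order of the other counts they were 17.8%, 79.2%, 63.7% and 69.4%. Centring on library medians gave 31 and 53 at 4 and 8 h of CX-5461, 54 and 19 between inhibitors at 4 and 8 h, and 50 from 4 to 8 h of BMH-21. Quantile normalization gave 17 at 4 h of CX-5461, 8 at 4 h between inhibitors and 8 from 4 to 8 h of CX-5461. Without a filter the counts were 16 at 4 h of BMH-21, 14 at 4 h of CX-5461, and 8 and 25 between inhibitors at 4 and 8 h. A mean of at least 2 gave 5 at 2 h of BMH-21 and 14 at 4 h of CX-5461, and eBayes without trend gave 8 at 4 h between inhibitors. Fitting only the groups compared gave 6 at 2 h of each inhibitor, 17 at 4 h of CX-5461, 33 at 4 h between inhibitors and 6 for the difference of changes. Removing a length trend gave 7 and 62 at 2 and 8 h of BMH-21, 6 and 24 at 2 and 4 h of CX-5461 and 32 for the difference of changes. Removing a GC trend gave 15 at 4 h of CX-5461 and 1 at 2 h between inhibitors. Without the 3 libraries that stood apart there was 1 call at 2 h between inhibitors and 17 for the difference of changes. Shares of all genes called are not given for these other settings or for left-out replicates. Those counts describe how far the number of calls moved, and do not compare subunit genes with all genes. The cause was not tested.

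Replicate numbers did not pair the libraries: same-number correlations of deviations ran from -0.251 to 0.109, and 4 of 21 libraries correlated best with their own number. With the replicate block, the count at 4 h between inhibitors was 11 in place of 17, and the other 11 counts stayed within 1.5 times of theirs.

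Leaving out each replicate gave, against control at 2, 4 and 8 h, 1 to 4, 15 to 32 and 39 to 45 calls with BMH-21, then 1 to 3, 7 to 11 and 23 to 30 under CX-5461. Between inhibitors it gave 0 to 0, 3 to 16 and 22 to 49, from 4 to 8 h of BMH-21 25 to 48, over the same interval of CX-5461 21 to 26, and 5 to 20 for the difference of changes.

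Log2 changes of named genes turned sign with a call on at least one side in 31 cases, and uncalled values near 0 turned sign in others. At 8 h of BMH-21 quantile normalization gave Atp5a1 0.15, Atp5b 0.029, Atp5f1 0.046, Atp5g1 0.060, Atp5g3 0.10, Atp5s -0.61, Cox4i2 -0.48 and Cox7a1 -0.28. The deposited scale gave Atp5g2 -0.18, Atp5o -0.29, Cox4i1 -0.084, Cox6a1 -0.11, Cox6b1 -0.25, Cox7a2 -0.32, Cox8a -0.16, Ndufa4 -0.022, Ndufs8 -0.38, Ndufv1 -0.30, Sdhc -0.25 and Uqcrc1 -0.085, and centring gave Ndufs8 -0.17 and Sdhc -0.043. At 8 h of CX-5461 quantile normalization gave Atp5a1 0.025, Atp5b 0.016, Atp5g1 0.017, Atp5g3 0.058, Atp5o 0.16, Atp5s -0.41, Cox7a1 -0.24 and Ndufv1 0.19, and centring gave Cox5b -0.0036. Apart from left-out replicates, 73 other values of named genes lost their call and 59 gained one. Depth limits Cox6a2, Cox8b and Cox8c, which had 0 to 43 reads per library.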

Other observations

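Within complex IV, the log2 change at 8 h correlated with GC content across 15 genes, with Spearman's rho of 0.79 for BMH-21 and 0.80 for CX-5461, against 0.12 and 0.21 over all 14146 genes with a value. This is a description over genes that share libraries, not a test. In complex V the change correlated with transcript length across 17 genes, with rho of -0.69 and -0.47. Cox8c had 4 to 19 reads per library and Cox8b 0 to 6.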
